A study of Mus musculus with 3 samples.

Results

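Patrolling-like cells were the cells that carried at least 1 unique molecular identifier (UMI, one counted transcript molecule) in 3 or more of the 6 genes Ace, Adgre4, Spn, Treml4, Ear2 and Ceacam1. They numbered 4627 of the 16021 cells kept (28.9%), after barcodes under 500 detected genes or above 10% mitochondrial UMIs had been set aside. Control 1 gave 1387, control 3 gave 2415 and knockout 4 gave 825 of them. Because these 6 genes chose the cells, their levels are described below without a test.

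The study sorted Ly6Chi monocytes from mouse liver 24 h after an overdose of acetaminophen and sequenced single cells from 3' transcript ends. All mice were male C57BL/6 aged 8 weeks. They were fasted for 12 h, received acetaminophen at 300 mg/kg by intraperitoneal injection, and had chow back after 2 h. Both control libraries, 1 and 3, came from Commd10 fl/fl mice, in which the gene is flanked by recombination sites but intact. The single knockout library, 4, came from mice of the same background in which LysM-Cre deletes Commd10. COMMD10 belongs to a protein family that takes part in endosomal sorting. LysM-Cre acts in monocytes, macrophages and neutrophils alike, so the deletion is not limited to the cells described here. Whether each library came from one mouse or from pooled mice is not in the labels, so p-values here reflect the scatter of 3 libraries, and that scatter may be technical.

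Monocytes circulate in mice as classical cells, high in Ly6C and CCR2, which enter inflamed tissue, and as nonclassical or patrolling cells, low in Ly6C and high in CX3CR1, which crawl along the inner wall of blood vessels. Classical cells give rise to patrolling cells, a conversion that depends on the orphan nuclear receptor NR4A1, and patrolling cells use the integrin LFA-1 to crawl. In the injured liver, monocytes that arrive as Ly6Chi cells also mature into macrophages.

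The knockout library was shallower in these cells. Patrolling-like cells held a median of 9643 UMIs in control 1, 10309 in control 3 and 6846 in knockout 4, beside 8397, 7686 and 6865 in the other cells of the same libraries. Among patrolling-like cells, 18.5%, 26.4% and 4.61% had over 2 times the median UMIs of their library, against 3.12%, 3.68% and 1.95% of the others. The main results are therefore given also for cells thinned at random to 3000 UMIs each. Doublets were not removed. Over all cells, the level of Commd10 in UMIs scaled to a common library total (CPM) was 17.6 for control 1, 10.3 for control 3 and 8.41 for knockout 4, but tags from the 3' end need not fall in the exons removed, so these values do not check the genotype. Control 1 and control 3 shared 8 barcodes among the cells kept (1 of them patrolling-like in both), control 1 and knockout 4 shared 2 (0), and control 3 and knockout 4 shared 19 (1).

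The genes of the rule encode surface or secreted proteins. Ace is angiotensin-converting enzyme, Adgre4 an adhesion receptor of the EGF-TM7 family, Spn the sialomucin CD43, Treml4 a receptor of the TREM family, Ear2 an eosinophil-associated ribonuclease and Ceacam1 a cell adhesion molecule. In patrolling-like cells, a UMI of Treml4 was present in 81.4%, 79.3% and 80.0% of cells of control 1, control 3 and knockout 4. For Adgre4 these shares were 79.0%, 79.5% and 76.2%, and for Ear2 they were 77.5%, 75.2% and 72.8%. Spn was the least often detected, in 44.6%, 39.96% and 35.0% of the patrolling-like cells. Ear2 and Ceacam1 have close relatives in the genome, so reads may have been split between copies, and a rule of 2 or more of the other 4 genes is given as an alternative in the closing section.

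The rule cuts a graded count, not a separate population. Exactly 2 of the 6 genes were seen in 702, 1431 and 704 cells of control 1, control 3 and knockout 4, just outside the rule, and exactly 3 in 533, 1031 and 375, just inside it. All 6 genes were seen in 187, 271 and 70 cells, or 11.4% of the patrolling-like cells. The most frequent set of exactly 3 was Adgre4, Treml4 and Ear2, in 350 cells.

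Cells that should lack most of these genes gave a background. In 78 cells that carried lymphocyte markers, Ace was seen in 8.97% (exact Clopper-Pearson 95% interval 3.68 to 17.6), Adgre4 in 16.7%, Ear2 in 20.5% and Treml4 in 19.2%, at a median of 2872 UMIs per cell. Spn is also made by lymphocytes and was seen in 26.9% of them. Of these 78 cells, 10 met the rule, or 12.8% (6.32 to 22.3).

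Among cells with 2 or fewer of the genes, thinned to the similar depth of 3000 UMIs, Ace was seen in 5.80%, 6.33% and 6.16% and Treml4 in 14.4%, 15.7% and 13.2%. In thinned patrolling-like cells Ace was seen in 57.8%, 55.8% and 61.5% and Treml4 in 64.0%, 63.6% and 76.8%. Both genes are part of the rule, which largely fixes these shares, so they are given as a description only.

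Patrolling-like cells were a smaller share of the knockout library than of either control at full depth, and than of control 1 alone at equal depth. They made up 33.7% of cells in control 1 (exact Clopper-Pearson 95% interval 32.3 to 35.2), 32.4% in control 3 (31.4 to 33.5) and 18.5% in knockout 4 (17.4 to 19.7). In cells thinned to 3000 UMIs the shares were 13.5% (12.4 to 14.6), 9.31% (8.62 to 10.0) and 9.68% (8.74 to 10.7). Control 1 then stood above both other libraries, and the intervals of control 3 and knockout 4 overlapped. These thinned shares lay inside the interval of the share of lymphocyte-marked cells that met the rule (12.8%, 6.32 to 22.3, at a median of 2872 UMIs), toward which the Spn made by lymphocytes also counts. The ratio of the knockout share to the mean control share was 0.560 at full depth, 0.850 after thinning, and 1.03 when thinned cells had to carry 4 or more of the genes. Thinning left out 527, 713 and 757 shallower cells, and 483, 627 and 358 patrolling-like cells still met the rule. No test of the share was run, the intervals cover counting error only, and the sort on Ly6Chi sets how many patrolling cells could enter any library.

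**Figure D1:**
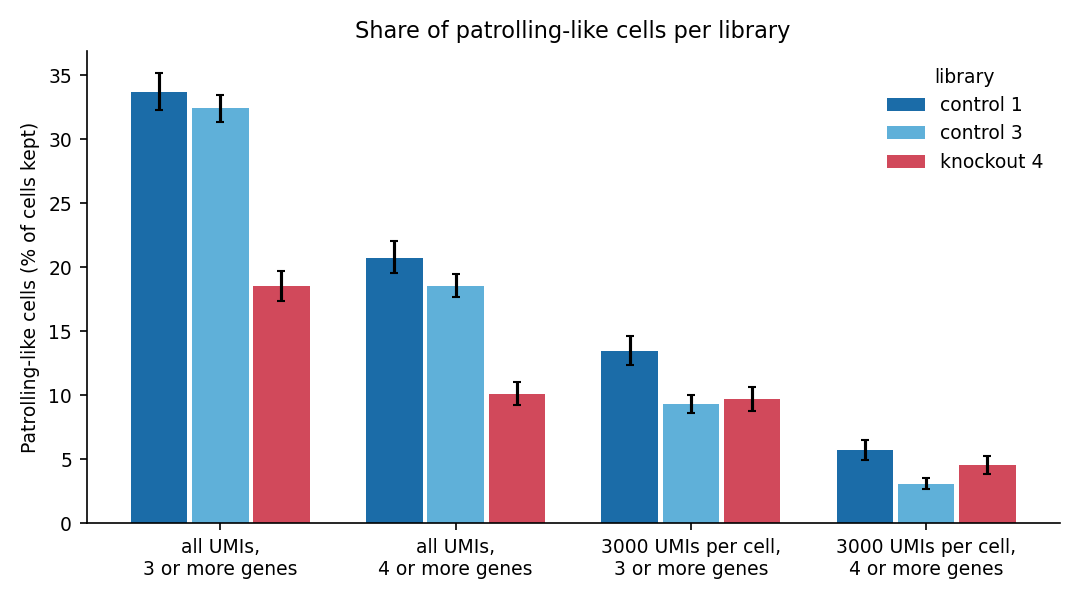
Patrolling-like cells as a percentage of the cells kept (y axis) in each library (bar colour), under the rule of 3 or more genes and a stricter rule of 4 or more, at full depth and with each cell thinned to 3000 UMIs. Error bars are exact 95% binomial intervals. At full depth knockout 4 lies below both controls (18.5% against 33.7% and 32.4%), and at 3000 UMIs it lies between them (9.68% against 13.5% and 9.31%).

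Summed over all cells of a library rather than counted per cell, the rule genes gave levels without a per-cell threshold. Of Ace, control 1 held 67.9 CPM, control 3 held 50.6 and knockout 4 held 54.2. For Treml4 the levels were 92.7, 88.0 and 83.1. Those of Adgre4 were 90.4, 85.2 and 62.9. Knockout 4 was lowest for 5 of the 6 genes, and for Ace it lay between the controls.

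To describe the cells by genes that the rule did not use, UMI counts were summed per library over patrolling-like cells and over other cells. The 6 sums were compared with the library as a block (edgeR quasi-likelihood test, Benjamini-Hochberg adjustment, threshold 0.05). The marker lists were chosen with earlier results of these data known, so their counts are no independent check of the label. Of 13 further patrolling markers, 10 were higher in patrolling-like cells, 1 was lower (Cd36, a lipid scavenger receptor) and 2 did not pass (Fabp4 and Pparg, genes of fatty acid binding and lipid regulation). Of 8 classical markers, 5 were lower and 3 did not pass (Ccr2, Chil3 and Hp). In all 13128 genes tested apart from the 6 of the rule, 1192 were higher (9.08%) and 1042 were lower (7.94%). DESeq2 called 673 higher (5.13%) and 547 lower (4.17%), and the test on thinned cells called 863 higher (8.1%) and 788 lower (7.4%) of 10655. The cells were chosen one by one within these libraries, so the p-values say only whether a gap held across libraries. Without the library block 8 genes were higher and 1 lower, and without control 1 the counts were 233 and 171.

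Eno3, the muscle form of the glycolytic enzyme enolase (chromosome 11, 70657202 to 70662513 on GRCm38), rose most among genes outside the rule with a mean above 20 CPM. In this and the later comparisons CPM are adjusted by TMM factors, which correct for differences in composition. It stood at 47.9, 26.1 and 50.1 CPM in patrolling-like cells of control 1, control 3 and knockout 4, and at 8.93, 5.30 and 4.27 CPM in the other cells. Every patrolling-like sum lay above every other sum, with a log2 fold change of 2.69 ± 0.21 (SE, 3 libraries, adjusted p = 0.000964). A UMI of Eno3 was seen in 21.5%, 11.6% and 20.1% of thinned patrolling-like cells and in 4.44%, 2.29% and 1.56% of thinned other cells.

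Itgal, the alpha chain of LFA-1 (chromosome 7, 127296260 to 127335138), was at 362, 426 and 469 CPM in patrolling-like cells and 145, 227 and 159 CPM in others. It rose by 1.27 ± 0.12 on the log2 scale (adjusted p = 0.0016), in 3 of 3 libraries. S1pr5, a sphingosine 1-phosphate receptor known for the exit of patrolling monocytes from bone marrow, was low but clear, at 6.68, 6.39 and 8.14 CPM against 1.24, 1.66 and 0.785 (2.38 ± 0.23). Cd300e, an activating receptor of monocytes, stood at 4.19, 1.90 and 11.7 CPM against 0.578, 0.468 and 0.654. These last levels rest on 62 to 74 UMIs per library in patrolling-like cells and 13 to 18 in others, and the rise was 3.12 ± 0.35.

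Cx3cr1, the fractalkine receptor, was at 459, 369 and 289 CPM in patrolling-like cells and 273, 257 and 113 CPM in others, a rise of 0.87 ± 0.14. Within each library it was higher in patrolling-like cells, but the patrolling-like sum of knockout 4 was barely above the other cells of control 1. Gngt2, a G protein gamma subunit, reached 1274, 1147 and 1507 CPM against 671, 677 and 556 (1.05 ± 0.12). Over the whole list of 28 nonclassical program genes, none of them in the rule, 23 were higher and 1 was lower, with a median log2 fold change of 0.61 beside 0.00 over all genes tested. In thinned cells 24 were higher and 1 lower.

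The classical side changed less. Ly6c2, which encodes Ly6C (chromosome 15, 75108158 to 75111970), was at 332, 509 and 315 CPM in patrolling-like cells and 587, 713 and 679 CPM in others. It fell by 0.79 on the log2 scale (SE 0.09, adjusted p = 0.00284), and reads may be shared with its near-identical neighbour Ly6c1. Ccr2, the receptor that draws classical monocytes out of bone marrow, was at 839, 919 and 798 CPM in patrolling-like cells and 907, 1014 and 907 CPM in others. The gap of -0.13 ± 0.04 on the log2 scale missed the threshold (adjusted p = 0.0771), while in thinned cells it was -0.39 and passed (adjusted p = 0.000275).

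Both genes were still present in most patrolling-like cells. At full depth Ccr2 was seen in 94.4%, 95.2% and 87.0% of them and Ly6c2 in 68.9%, 82.9% and 58.2%. After thinning Ly6c2 was seen in 36.9%, 51.0% and 36.9% of patrolling-like cells and in 56.7%, 63.6% and 56.2% of others. Low CCR2, a defining feature of mature patrolling monocytes, was thus not met at this threshold, and the name patrolling-like stands for the rule and for the direction of its markers.

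Vcan, the matrix proteoglycan versican, was at 109, 352 and 188 CPM in patrolling-like cells and 180, 424 and 438 CPM in others (log2 fold change -0.71 ± 0.14). Control 3 was the highest library for this gene in patrolling-like cells. F13a1, coagulation factor XIII, fell by 0.68 and Fn1, fibronectin, by 0.80 on the same scale. Plac8, a gene of the classical list, went the other way, at 2287, 3086 and 3378 CPM against 1357, 2047 and 1752 (0.78 ± 0.08). Of 23 classical program genes, 13 were lower and 3 were higher, with a median of -0.21.

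**Figure D2:**
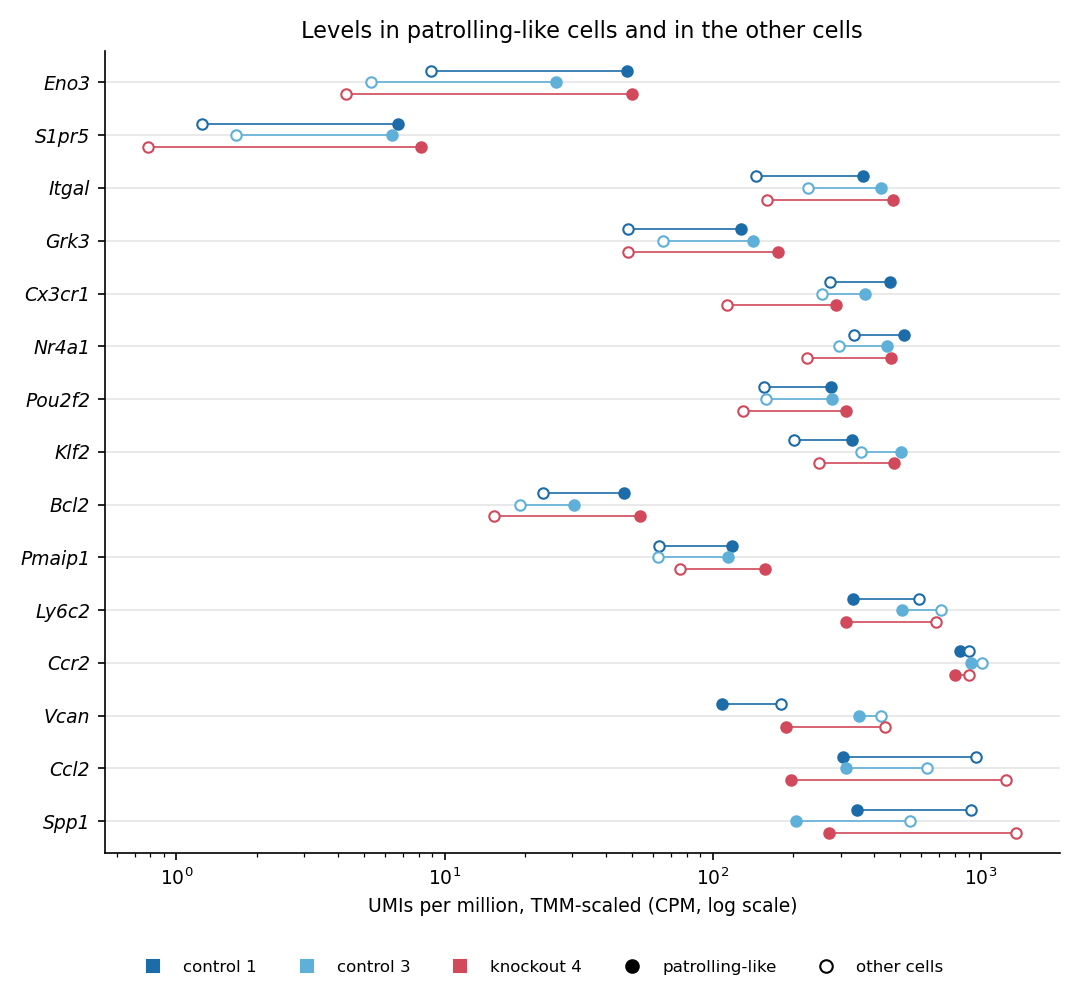
Level of 15 genes outside the rule in CPM on a log axis (x axis), in patrolling-like cells (filled circles) and other cells (open circles) of each library (colour), 1 sum per point. The upper 10 genes lie to the right in patrolling-like cells in all 3 libraries and the lower 5 to the left, with the smallest gap for Ccr2.

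Levels also moved step by step with the number of rule genes seen, at a fixed depth of 3000 UMIs. This is a description without a test, in CPM without TMM adjustment. Itgal went from 130, 204 and 123 CPM in cells with 0 of the genes to 325, 413 and 370 with 2, 530, 510 and 459 with 3, and 831, 692 and 1124 with 5 or 6. Nr4a1, the nuclear receptor on which the conversion to patrolling cells depends, went from 334, 279 and 201 to 1246, 763 and 802. Ly6c2 went down from 627, 710 and 645 with 0 of the genes to 383, 535 and 363 with 2, 258, 377 and 274 with 3, and 169, 167 and 226 with 5 or 6.

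All 3 genes moved on both sides of the rule. Ccr2 stayed near its starting level up to 2 genes (903, 994 and 874 with 0, 976, 964 and 875 with 2) and was at 462, 596 and 367 in cells with 5 or 6. Those cells numbered 65, 52 and 59 in control 1, control 3 and knockout 4. Summed over the 28 nonclassical program genes, the median cell went from 14, 15 and 11 UMIs with 0 of the rule genes to 36, 31 and 36 with 5 or 6. The median for the classical program went from 85, 85 and 71 to 72, 78 and 50.

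**Figure D3:**
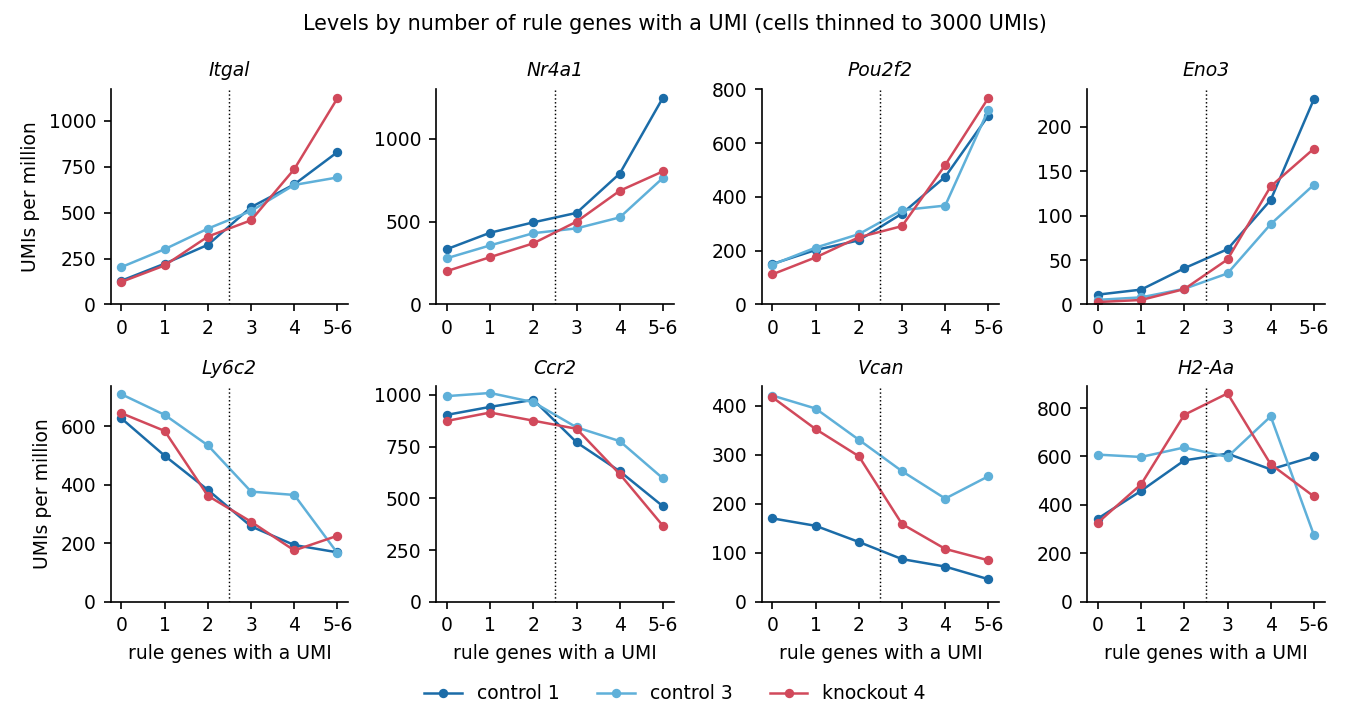
CPM (y axis) of 8 genes outside the rule in cells thinned to 3000 UMIs, grouped by how many of the 6 rule genes had a UMI (x axis), for each library (colour). The dotted line marks the rule. Itgal, Nr4a1, Pou2f2 and Eno3 climb on both sides of it and Ly6c2 and Vcan descend, apart from the last step in knockout 4 for Ly6c2 and in control 3 for Vcan, while H2-Aa has no common course in the 3 libraries.

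Among 25 transcription factors tested, 16 were higher and 2 were lower in patrolling-like cells, with a median log2 fold change of 0.31. Nr4a1 was at 519, 446 and 462 CPM against 335, 297 and 224 in others, a rise of 0.76 ± 0.09 (adjusted p = 0.00303). The patrolling-like sums did not overlap those of the other cells. Pou2f2, which encodes OCT2, rose from 155, 158 and 129 CPM to 276, 280 and 313 (0.98 ± 0.09). Klf2 and Klf4, Kruppel-like factors of quiescent and differentiating myeloid cells, rose by 0.72 ± 0.09 and 0.68 ± 0.13, and Hes1, a target of Notch signalling, by 0.92 ± 0.11. Cebpb, known to be needed for patrolling monocytes, stood at 1334, 464 and 465 CPM against 1167, 392 and 369. Its rise of 0.27 ± 0.05 was small beside the gap between control 1 and the other 2 libraries. Zeb2 (983, 1196 and 1173 CPM against 1026, 1157 and 1353) did not pass.

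Adhesion and migration genes were higher more often than lower. Of 22 tested, 13 were higher and 2 were lower, with a median of 0.25. Itga4, the alpha chain of VLA-4, was at 312, 356 and 361 CPM against 177, 246 and 155 (0.86 ± 0.12), and Itgax, CD11c, at 63.5, 32.2 and 85.1 against 32.1, 23.1 and 41.1 (0.84 ± 0.11). Msn, the membrane linker moesin, and Rap1b, a small GTPase that activates integrins, rose by 0.26 ± 0.05 and 0.24 ± 0.05. Itgb2, the beta chain that pairs with Itgal, was at 438, 437 and 485 CPM against 417, 411 and 499, and its difference of 0.05 ± 0.05 missed the threshold.

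In the BCL2 family and survival list, 8 of 15 genes were higher and 1 was lower, with a median of 0.23. Bcl2, which blocks apoptosis, was at 46.5, 30.4 and 53.6 CPM against 23.3, 19.1 and 15.3 (1.11 ± 0.18). Bcl2a1a, a further antiapoptotic member, was at 48.4, 43.9 and 79.2 CPM against 20.7, 22.8 and 32.9 (1.14 ± 0.08), although its copies Bcl2a1b and Bcl2a1d are nearly identical to it and reads may have been split. The more abundant copy Bcl2a1b stood at 248, 180 and 312 CPM against 216, 160 and 299 and did not pass (0.15 ± 0.05, adjusted p = 0.0537). Pmaip1, the proapoptotic protein NOXA, also rose, from 63.0, 62.8 and 75.8 to 118, 114 and 157 CPM (0.94 ± 0.06). Bcl2l1, which encodes BCL-XL, was the gene that fell, from 38.7, 43.1 and 40.6 to 27.4, 28.3 and 19.3 CPM (-0.67 ± 0.09). Mcl1 did not pass (-0.04 ± 0.05).

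Of 27 Fc and ITAM-linked receptor genes, 13 were higher and 2 were lower, with a median of 0.12. The 2 Fc receptors of opposite monocyte subsets moved apart. Fcgr4, the activating IgG receptor of patrolling cells, was at 104, 85.9 and 101 CPM against 72.5, 70.8 and 74.9 (0.42 ± 0.06, adjusted p = 0.00438), a rise that did not pass in thinned cells (0.28, adjusted p = 0.0513). Fcgr1, the high affinity receptor, was at 217, 219 and 207 CPM against 309, 297 and 346 (-0.55 ± 0.06). Lilra5, an immunoglobulin-like receptor, rose by 1.97 ± 0.13 from a low level, between 1.40 and 1.75 CPM in other cells. The adaptor Tyrobp was at 3915, 4711 and 4179 CPM against 3780, 4761 and 4106 and did not pass.

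Further genes above 20 CPM with the largest rises had less specific links to monocytes. Grk3, a kinase that switches off G protein-coupled receptors, was at 127, 141 and 175 CPM against 48.2, 65.3 and 48.2 (1.45 ± 0.13). Hpgd, which breaks down prostaglandins, stood at 55.1, 121 and 75.2 against 21.6, 75.7 and 19.2 (1.23 ± 0.20). Control 3 was high in both classes for Hpgd, so its other cells stood above the patrolling-like cells of control 1 and level with those of knockout 4. Pltp, phospholipid transfer protein, rose by 1.17 ± 0.20, Cbfa2t3, a transcriptional corepressor, by 1.07 ± 0.11, and Cyfip2, a regulator of actin assembly, by 1.27 ± 0.14. Tbc1d8, BC035044, Ly6i, Cyth3, Nxpe4 and Pot1b completed the 15 largest rises, between 1.08 and 1.36.

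Of 24 cytokine genes tested, 11 were lower, 2 were higher and 11 did not pass, with a median of -0.45. Ccl2, the ligand of CCR2, was at 305, 315 and 196 CPM in patrolling-like cells and 957, 632 and 1240 CPM in others (-1.74 ± 0.24, adjusted p = 0.00414). Ccl7, a chemokine of the same receptor, was at 87.8, 97.4 and 37.3 against 299, 213 and 430 (-1.98 ± 0.34). The groups did not overlap for either gene. The 2 higher genes were Il1b, at 616, 754 and 832 CPM against 388, 616 and 532 (0.55 ± 0.08), and Tgfb1, which rose by 0.28 ± 0.04.

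Of 25 macrophage maturation genes, 15 were lower and 3 were higher, with a median of -0.31. Spp1, osteopontin, stood at 345, 204 and 271 CPM against 918, 543 and 1356 (-1.69 ± 0.15). Gpnmb, a glycoprotein of lipid-laden macrophages, was at 119, 132 and 54.7 against 251, 202 and 170 (-1.05 ± 0.14). Apoe and Ctsd, a lipoprotein and a lysosomal protease, fell by 0.31 and 0.59 on the log2 scale. Of 23 glycolysis and hypoxia genes, 15 were lower and 0 were higher by the edgeR test (median -0.34), among them Gapdh (-0.34 ± 0.06), Pkm (-0.38 ± 0.06) and Ldha (-0.34 ± 0.05). DESeq2 gave the same counts, and at an unadjusted p under 0.05 the edgeR test gave 17 lower and 0 higher. The enolase genes moved apart, since Eno1 fell by 0.31 where Eno3 rose.

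Alarmin and granule genes were lower in 9 of 13 and higher in 0 by edgeR (median -0.56), against 5 and 0 by DESeq2 and 11 and 0 at an unadjusted p under 0.05. S100a8, an alarmin abundant in neutrophils and classical monocytes, was at 421, 224 and 604 CPM against 600, 276 and 1486 (-0.69 ± 0.15). Of 10 complement genes, 6 were lower, including the 3 chains of C1q (C1qa -0.46 ± 0.06, C1qb -0.50 ± 0.05 and C1qc -0.57 ± 0.04). Without TMM adjustment, neutrophil markers summed to 138, 132 and 201 CPM in patrolling-like cells and 140, 110 and 320 in others, with 2 or more of the 9 markers in 4.61%, 3.52% and 4.24% of patrolling-like cells. Kupffer cell markers summed to 12.8, 10.3 and 11.5 against 24.3, 15.6 and 14.2, and 2 or more of the 8 were seen in 0.721%, 0.414% and 0.121% of patrolling-like cells, with 3, 1 and 0 of the 8 at 0 there. The part of these cells in the results was not tested beyond leaving out cells with markers of another lineage, which gave 1127 genes higher and 1034 lower.

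Type I interferon genes gave 1 higher and 1 lower of 28 (median -0.03), beside 9.08% higher and 7.94% lower of all genes tested. In thinned cells 1 was higher and 3 were lower of 27 (median -0.13), with Isg15 at -0.36 (adjusted p = 0.00654). Ifitm3 was at 2861, 4321 and 3325 CPM against 2879, 4271 and 3365. Immediate early genes, which respond to tissue dissociation, gave 0 higher and 1 lower of 17 by both edgeR and DESeq2 (median 0.04), 4 higher and 3 lower at an unadjusted p under 0.05, and 3 and 3 of 16 in thinned cells. MHC class I genes were higher in 4 of 10 by edgeR (B2m 0.28 ± 0.06, H2-K1 0.33 ± 0.07) and in 3 by DESeq2. None was lower by either tool or at an unadjusted p under 0.05. Of 13 genes of the COMMD, CCC and retriever complexes, 4 were lower by edgeR and 1 by DESeq2 (median -0.14). Commd10 itself was at 17.6, 10.1 and 8.30 CPM in patrolling-like cells and 17.1, 10.8 and 8.64 CPM in others, with no difference that passed (adjusted p = 0.854).

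**Figure D4:**
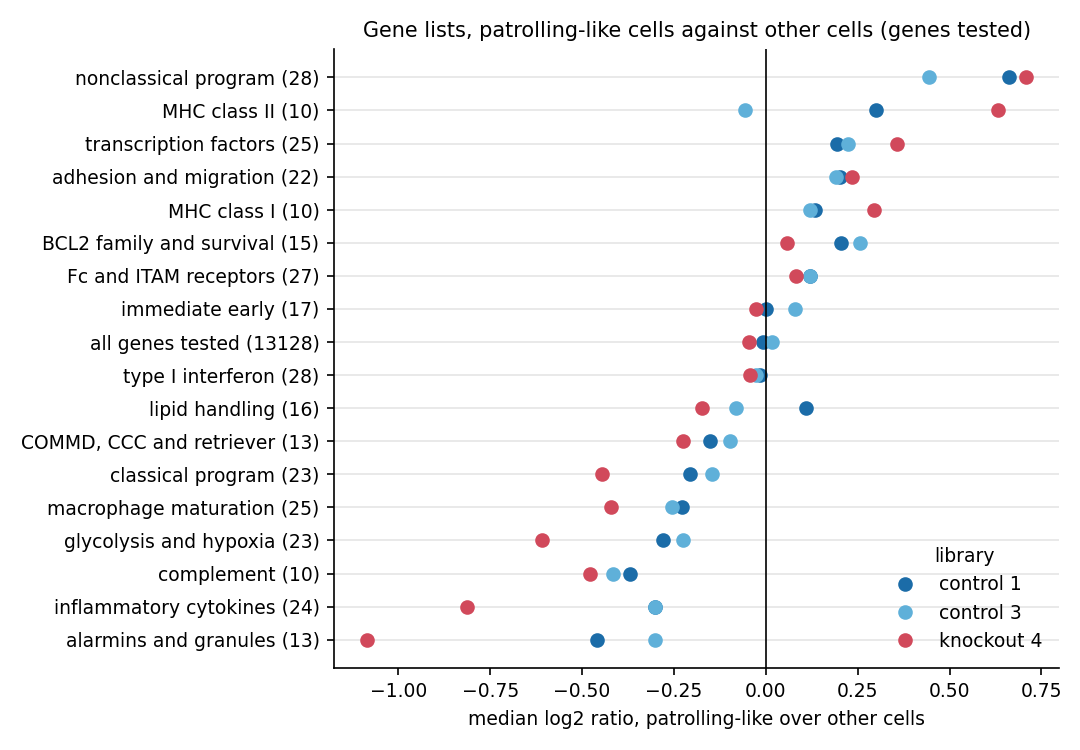
Median log2 ratio of patrolling-like over other cells (x axis) for each gene list and for all genes tested (y axis, with the number of genes), 1 point per library. The nonclassical program lies highest in all 3 libraries (0.66, 0.44 and 0.71), the classical, complement, macrophage maturation, glycolysis, cytokine and alarmin lists lie below 0 in each, and MHC class II ranges from -0.06 in control 3 to 0.63 in knockout 4.

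The immunoglobulin genes Igha and Igkc led the falls, with their UMIs in few cells. Igha stood at 1.87, 1.08 and 0 CPM in patrolling-like cells and at 100, 52.3 and 0.131 CPM in others. Of the 5600 and 9457 immunoglobulin UMIs in other cells of control 1 and control 3, 5294 came from 16 cells and 9321 from 9 cells. Leaving out cells with over 10 hemoglobin or immunoglobulin UMIs changed the counts little, to 1219 higher and 1038 lower. The remaining named falls were Cxcl3, Il7r (-1.69 ± 0.12), Emp1 (-1.66 ± 0.19), Pf4 (-1.62 ± 0.34) and AA467197 (-1.58 ± 0.21). Pf4 is also a platelet gene, and platelet markers summed to 103, 87.9 and 53.9 CPM in patrolling-like cells and 219, 170 and 461 in others.

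The comparison of knockout with control asks how these cells differ with loss of COMMD10. With 1 knockout library, that loss cannot be told apart from LysM-Cre itself or from other features of that library. Within patrolling-like cells the chemokine gene Cxcl9 was lower in the knockout library, and Ifitm1, Cxcl3, Egln3 and Ero1l were among 9 genes that were higher. Of 13113 genes tested with edgeR, 9 were higher (0.0686%) and 1 was lower (0.00763%). DESeq2 called 11 higher (0.0839%) and 4 lower (0.0305%), thinned cells gave 2 higher (0.0228%) and 4 lower (0.0456%) of 8781, and 787 genes had an unadjusted p under 0.05. The spread came from 2 control libraries with 1 residual degree of freedom, and from a spread that edgeR shares across genes (7.99 prior degrees of freedom). This presumes that knockout 4 scatters as the controls do. On simulated counts for this comparison the test recovered 74% of changes of 1 on the log2 scale but 7.29% of changes of 0.5 (12853 genes). The changes were planted only in genes with a mean above 20 CPM. Recovery for lower genes, such as Cxcl3, Egln3, Retnla and Ddx4, was not tested.

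Cxcl9, an interferon-induced chemokine that attracts T cells (chromosome 5, 92321347 to 92328079), was at 23.5 and 24.5 CPM in patrolling-like cells of the controls and 0.479 CPM in those of knockout 4. The knockout value rests on 3 UMIs beside 1212 in the controls, a ratio of 0.0203 with an exact 95% counting interval of 0.00419 to 0.0596. The test gave an adjusted p of 0.000714. It was the only called gene that passed under each of the alternatives in which it was tested, 12 of 12. Cxcl9 was also lower in the other cells of knockout 4, at 21.8, 31.1 and 1.35 CPM. The log2 fold change was -5.59 in patrolling-like and -4.28 in other cells, a difference that did not pass (adjusted p = 0.448).

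Ifitm1, an interferon-induced membrane protein (chromosome 7, 140967221 to 140969825), was at 25.4, 26.02 and 80.4 CPM, a log2 fold change of 1.68 ± 0.15 (adjusted p = 0.00407). In thinned cells the difference was 0.47 and did not pass (adjusted p = 0.939). Egln3, a prolyl hydroxylase that acts on hypoxia-inducible factors, was at 6.74, 5.19 and 25.5 CPM (2.15 ± 0.24, adjusted p = 0.0199), and Ero1l, an oxidase of protein folding, at 41.7, 42.9 and 94.96 (1.21 ± 0.15, adjusted p = 0.0376). Cxcl3, which attracts neutrophils, was at 4.64, 4.73 and 20.4 CPM (2.16 ± 0.24). All 4 kept their direction when either control was left out, and in thinned cells all 4 missed the threshold. Of the alternatives in which each was tested, Ifitm1 passed 8 of 12, Egln3 7 of 12, Ero1l 6 of 12 and Cxcl3 6 of 11. Each of them also missed the threshold with 4 or more genes and with 2 or more of 4 genes. The thinned log2 fold changes of Egln3, Ero1l and Cxcl3 were 2.08, 1.09 and 2.56, close to or above those at full depth, while that of Ifitm1 was smaller. Among other cells, Ifitm1, Egln3, Ero1l and Cxcl3 also passed, with log2 fold changes of 1.86, 2.57, 1.76 and 4.26. By the edgeR test of the difference between classes, the effects differed for Cxcl3 (-2.11, adjusted p = 9.67e-19) and Ero1l (-0.54, adjusted p = 5.28e-06). Those of Egln3 and Ifitm1 did not pass (-0.39 and -0.14). In thinned cells the difference passed for Ifitm1 (-1.60, adjusted p = 1.67e-05) and not for Cxcl3, Ero1l or Egln3.

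The remaining 5 calls rest on few molecules or few cells. Hbb-bs, Hba-a1 and Hba-a2 are hemoglobin genes, and 737 of the 761 hemoglobin UMIs in knockout patrolling-like cells came from 1 cell. Without cells of over 10 hemoglobin or immunoglobulin UMIs none of these 3 passed, and 3 genes were higher and 1 lower in all. Retnla (1.08, 0.461 and 10.7 CPM) and Ddx4 (1.25, 1.08 and 8.62 CPM) rest on 67 and 54 UMIs in the knockout library.

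Few genes of the lists passed, and few of all genes tested did (0.0686% higher and 0.00763% lower), so a count of 0 in a list says little. Of 28 nonclassical program genes, 0 were higher and 0 lower between knockout and control patrolling-like cells by edgeR and by DESeq2 (5 and 1 at an unadjusted p under 0.05), with a median of 0.20 beside -0.02 over all genes tested. Nr4a1 was at 519, 446 and 462 CPM (-0.03 ± 0.17), Itgal at 362, 426 and 469 (0.29 ± 0.16) and Ly6c2 at 332, 509 and 315 (-0.38 ± 0.23). Knockout 4 lay inside or close to the range of the 2 controls for these genes. Cx3cr1, at 459, 369 and 289 CPM, was lowest in knockout 4 and did not pass (-0.48 ± 0.19, adjusted p = 0.815). Of 23 glycolysis and hypoxia genes, 2 were higher (Egln3 and Ero1l; DESeq2 called 4), and 22 had a positive log2 fold change, with a median of 0.57. Bnip3 (33.2, 29.8 and 62.4 CPM) and Slc2a1 (36.5, 46.7 and 84.6 CPM) were above both controls and did not pass, with adjusted p of 0.118 and 0.143.

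Gpnmb (119, 132 and 54.7 CPM, -1.16 ± 0.17, adjusted p = 0.0818), Ccl7 (87.8, 97.4 and 37.3 CPM, -1.27 ± 0.18, adjusted p = 0.0621) and Gbp2 (26.6, 32.1 and 11.3 CPM, -1.33 ± 0.22, adjusted p = 0.134) came next in order of p among the lower genes. Lyz2, the lysozyme gene at whose locus LysM-Cre sits, was at 13970, 11126 and 5519 CPM in patrolling-like cells. The difference of -1.15 ± 0.19 missed the threshold (adjusted p = 0.143) and passed it in thinned cells (-1.20, adjusted p = 0.00453).

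By a test of the difference itself, the effect of the knockout was lower in patrolling-like than in other cells for 12 cytokine and 14 glycolysis and hypoxia genes. It was higher for 15 nonclassical program and 7 MHC class II genes. Other lists moved too, so the shift was not limited to these lists. Alarmin and granule genes were lower in 9 of 13 (0 higher), classical program genes in 11 of 23 (1 higher) and macrophage maturation genes in 10 of 25 (3 higher). In thinned cells these gave 9 lower and 0 higher of 12, 7 and 0 of 22, and 9 and 1 of 25. Transcription factors were higher in 9 of 25 (1 lower), and in 1 of 25 (1 lower) in thinned cells. The test, an interaction of class and genotype, called 372 genes higher (2.83%) and 391 lower (2.98%) of 13128. Here higher means a more positive log2 change in patrolling-like cells, which can also be a smaller fall. Cx3cr1, for example, changed by -0.48 in patrolling-like cells and by -1.21 in other cells. DESeq2 called 21 higher (0.16%) and 59 lower (0.449%), and thinned cells gave 51 (0.479%) and 96 (0.901%) of 10655. This test also rests on 1 knockout library and 1 residual degree of freedom. Its p-values presume that the gap between classes in knockout 4 scatters as in the 2 controls. They also rest mostly on a spread that edgeR shares across genes, with 73.2 prior degrees of freedom here. Very small values therefore do not reflect replicated knockouts. The lower depth of patrolling-like cells in knockout 4 moves with this comparison, and its part in the calls at full depth was not tested beyond the thinned values given below.

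Ccl7 was at 299, 213 and 430 CPM in other cells and at 87.8, 97.4 and 37.3 CPM in patrolling-like cells, so knockout 4 was highest in one class and lowest in the other. The log2 difference of the effects was -2.05 (adjusted p = 8.62e-24) and -1.57 in thinned cells (adjusted p = 0.00123). Pf4 showed the same arrangement, at 211, 167 and 436 CPM in others and 97.2, 84.8 and 49.0 CPM in patrolling-like cells (-2.06, and -2.03 in thinned cells). Arg1, the arginase of repair macrophages, was at 459, 167 and 1863 CPM in others and 225, 86.4 and 363 CPM in patrolling-like cells (-1.32, and -1.37 in thinned cells). The knockout library was highest in both classes, more so in the others. Ccl24 (-1.36, thinned -1.23) and Thbs1 (-1.06, thinned -0.85) differed in the same direction.

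In other cells, where 18 genes were higher (0.131%) and 9 lower (0.0654%) of 13756 between knockout and control, Bnip3 and Slc2a1 were higher (1.72 and 1.64). Their effects differed between the classes by -0.67 and -0.56 (adjusted p = 2.54e-07 and 3.46e-06), and by -1.15 and -0.90 in thinned cells (adjusted p = 0.0038 and 0.0263). Of 23 glycolysis and hypoxia genes, 14 were lower by this test and 0 were higher, beside 1 and 0 by DESeq2, 21 and 0 at an unadjusted p under 0.05, and 7 and 0 in thinned cells. Of 24 cytokine genes, 12 were lower and 1 was higher, beside 9 and 0 of 22 in thinned cells and 7 and 0 by DESeq2.

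Nonclassical program genes leaned the other way, with 15 of 28 higher and 1 lower, 8 and 0 in thinned cells, and 4 and 0 by DESeq2. Cx3cr1 was at 273, 257 and 113 CPM in other cells and 459, 369 and 289 CPM in patrolling-like cells, a difference of 0.77 (adjusted p = 1.46e-13; 0.70 in thinned cells, adjusted p = 3.06e-05). Gngt2 differed by 0.65 (0.55 in thinned cells), and knockout 4 was lowest in other cells and highest in patrolling-like cells. MHC class II genes were higher in 7 of 10 and lower in 0, in 5 and 0 in thinned cells, and in 1 and 0 by DESeq2 (7 and 1 at an unadjusted p under 0.05). Cd74, the invariant chain, was at 1456, 2439 and 1838 CPM in others and 1937, 2389 and 3022 CPM in patrolling-like cells (0.58, adjusted p = 4.19e-09, and 0.36 in thinned cells, adjusted p = 0.0001). The Cd74 difference was 0.79 without control 1 and 0.34 without control 3, and that of H2-Aa 0.89 and 0.29, so both sizes depend on which control is used. Ciita, the master regulator of this pathway, was at 17.3, 22.6 and 15.4 CPM in others and 25.7, 33.4 and 44.4 CPM in patrolling-like cells (1.02, and 1.35 in thinned cells). Control 3 had no gap between classes for Cd74, unlike control 1.

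**Figure D5:**
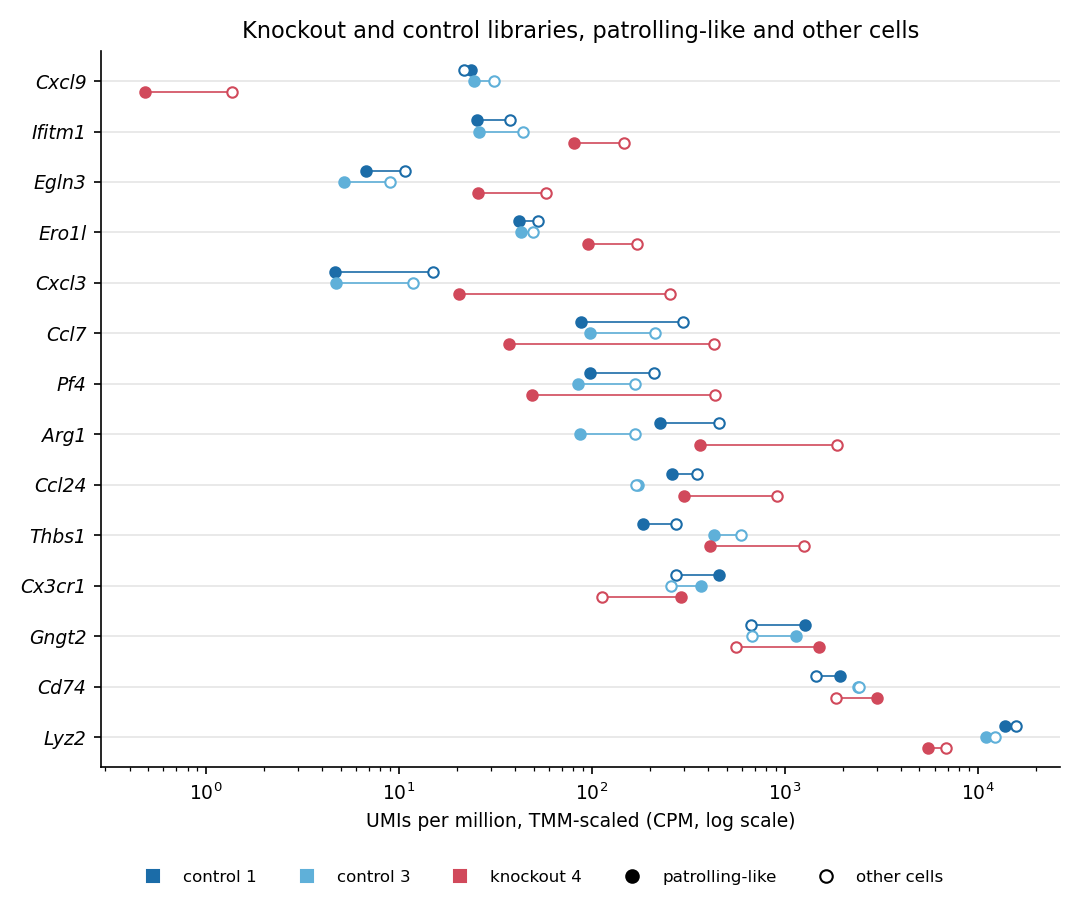
Level of 14 genes in CPM on a log axis (x axis) in patrolling-like cells (filled circles) and other cells (open circles) of each library (colour), 1 sum per point. Cxcl9 is low in both classes of knockout 4 (0.479 and 1.35 CPM), while for Ccl7 and Pf4 the filled point of knockout 4 is the lowest and the open point the highest of the 3 libraries.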

How the data were processed

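The values deposited by the authors are raw UMI counts for each gene in each barcode. Per the submitters' processing notes, bcl2fastq and Cell Ranger 3.0.2 were used, with build GRCm38. How barcodes were filtered before deposit was not stated. Coordinates came from GENCODE M21, in which 99.7% of the 53802 gene identifiers were found. The members and lists were chosen with earlier results of these data known. Doublets were not removed, and cells were not clustered.

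UMIs were summed per library and class (6105294 to 39344511 per sum) and tested with edgeR 4.0.16 (R 4.3.3): TMM, filterByExpr, glmQLFit and two-sided glmQLFTest, Benjamini-Hochberg adjustment, threshold 0.05. Residual degrees of freedom were 2 for patrolling-like against other cells (library as block) and 1 for the other 2 comparisons. Cells under 3000 UMIs (1997) were left out of thinned sums. The named genes were, above a mean of 20 CPM, the 15 largest rises and 10 largest falls between classes with the same sign in each library. To these came the 10 smallest p between knockout and control in each direction (5 where fewer than 5 passed), the 5 smallest for the interaction, the 6 most abundant genes of each list, Commd10, Lyz2 and the rule genes. S1pr5, Cd300e, Lilra5, Bcl2a1d, Bcl2l1, Pou2f2, Klf2, Klf4, Hes1, Cebpb, Itga4, Itgax, Ciita, Cd36, Fabp4, Pparg, Vcan, F13a1, Ly6c2, Fcgr1, Fcgr4, Bnip3 and Slc2a1 were named after their values were seen. DESeq2 1.42.0, other filters, scalings and marker rules, and leaving out each library were alternatives. The steps were tested on counts simulated with the same spread for every library, set by the trend over genes. Changes were planted only in genes with a mean above 20 CPM, so the shares found do not cover lower genes. Of genes changed by 1 log2 unit, 100% were found between classes (12971 genes) and 99.3% for the interaction (12982 genes), with 3.72% and 4.02% of calls false. For changes of 0.5 log2 units these shares were 98.7% and 68.6%. The check cannot show the error rate if knockout 4 scatters more than the controls. In that check 5.97% of calls were false between knockout and control. List genes Sfpi1, Itgam, Aldoa, Vps35l, Vps26c, Bcl11b and Siglecf were not analysed here, and 1 gene of the classical list is not reported here by name.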

Additional observations from a re-analysis of the deposited data

Results flagged for a closer look

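In these 10 genes the knockout effect differed between patrolling-like and other cells by the interaction test (edgeR, 1 knockout library, adjusted p under 0.05 in each). The difference, as the log2 effect in patrolling-like cells minus that in other cells, was -2.05 for Ccl7, -2.06 for Pf4, -1.32 for Arg1, -1.36 for Ccl24 and -1.06 for Thbs1. It was 0.65 for Gngt2 and 0.77 for Cx3cr1. For these 7 genes the thinned cells gave the same sign and passed as well, with values of -1.57, -2.03, -1.37, -1.23, -0.85, 0.55 and 0.70 in the same order. For the hemoglobin genes the difference was 11.81 for Hbb-bs, 8.49 for Hba-a1 and 10.08 for Hba-a2. In knockout 4, 737 of 761 hemoglobin UMIs of patrolling-like cells came from 1 cell, and in control 3, 4260 of 4352 in other cells came from 2.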

How the results depend on the processing

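The share ratio of 0.560 moved to 0.850 in thinned cells, 0.513 with 4 or more genes, 0.670 with 2 or more, 0.638 without high-UMI cells and 0.613 with 2 or more of 4 genes, and it reversed to 1.03 with 4 or more genes in thinned cells. The 2234 genes called between classes became 1220 with DESeq2 and 9 without the library as a replicate block (8 higher, 1 lower). Leaving out 1 library gave 404 to 3408. The lowest count came without control 1 (233 higher, 171 lower) and the highest without knockout 4. For the 10 genes called between knockout and control, library totals gave 67 (67.2% higher, against 90% in the main test), no low-count filter 162 (54.3% higher), DESeq2 15 (73.3% higher), thinned cells 6 (33.3% higher), 4 or more genes 5, leaving out cells with markers of another lineage 5, and leaving out cells with over 10 hemoglobin or immunoglobulin UMIs 4. The rule of 2 or more of 4 genes gave 4, and 4 or more genes in thinned cells gave 18 (38.9% higher). The 763 interaction calls (48.8% higher) became 80 with DESeq2 (26.3% higher), 147 in thinned cells (34.7% higher), 407 without high-UMI cells and 48 with 4 or more genes in thinned cells (31.3% higher). No low-count filter gave 754 (32.9% higher). Of single genes, Cd5l between classes turned to 0.0993 without cells of another lineage and 0.307 with 4 or more genes in thinned cells. Under that last setting the interaction turned to -3.74 for Hbb-bs and -6.64 for Hba-a1, and Hba-a1 turned to -0.20 without cells of over 10 hemoglobin or immunoglobulin UMIs. The cause of these changes was not tested. No paired analysis of knockout against control was possible because control libraries 1 and 3 and knockout library 4 share no replicate number. The settings of the 2 or more of 4 genes, of 4 or more genes in thinned cells, and of hemoglobin and immunoglobulin were chosen after seeing the data. Depth limits small changes, and the single knockout library allows no estimate of its own spread.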
